A study of Mus musculus with 10 samples.

Results

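The livers of mice given 7 g/kg ethanol by gavage were compared with those of mice given maltose by gavage, on 6 of the 10 arrays of the series. Members were chosen by array title: 3 arrays carry the 7 g/kg ethanol label and 3 the maltose control label, and the other 4 arrays are from mice given 5 g/kg ethanol. All mice were male C57BL/6N, and fresh liver was taken. The maltose dose matched the calories of 5 g/kg ethanol, so the control is not calorie-matched to 7 g/kg, and no group received neither ethanol nor maltose. The labels give no time after gavage and do not say whether each array is 1 animal, so p-values measure the spread between arrays, which may be technical. Each array measured liver RNA in Cy5 against one reference RNA in Cy3, and every level below is a log2 ratio of liver over reference. Group differences are 7 g/kg minus control on that log2 scale, with the standard error (SE), and a gene is said to have passed where limma gave it a p under 0.05 after Benjamini-Hochberg adjustment.

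The liver clears most ingested ethanol, by alcohol and aldehyde dehydrogenases and by the P450 enzyme CYP2E1. Hepatocytes also burn or store fatty acids under the control of PPAR alpha, SREBP1 and ChREBP, make bile acids from cholesterol, and secrete most plasma proteins. Under inflammatory cytokines they release acute phase proteins, and when proteins misfold in the endoplasmic reticulum (ER) they raise ER chaperones. Lipolysis, adipocyte death and ER stress are the subjects in the title of the series.

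Median liver-channel signal was 121 to 219 over the 10 arrays against a local background of 21 to 24, and 67.3% to 86.2% of spots were well above background. Mean ratios over the 10 arrays lay near 0, with a 5th percentile of −0.30 and a 95th percentile of 0.34 over all genes tested, and 14 hepatocyte defining markers had a median of 0.26. The labels name the reference as an assorted mouse RNA and also as liver. A list of 13 markers of muscle, brain, kidney, lung, testis, islet and skin, chosen after values were seen, ran from −1.18 to 0.06 with a median of −0.15, so most such markers were at nearly the same level in both channels. The reference was common to all arrays, and drops out of a difference between groups only where its signal was alike on them. From the Cy5 channel alone, quantile normalized and without division by the reference, some differences from control were smaller at 7 g/kg. Their median was 0.01 in place of 0.42 for hepatocyte defining markers and 1.43 in place of 2.33 for acute phase proteins. For de novo lipogenesis it was 0.58 in place of 0.67. The part of the reference in these gaps was not tested.

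Of 26124 genes tested, 2355 passed, which is 9.01%, with 1218 higher (4.66%) and 1137 lower (4.35%) in the 7 g/kg livers. The median over all genes tested was 0.01. Of the 2355, 450 changed at least 2-fold (1.72% of genes tested), 306 higher and 144 lower, and at least 4-fold changes were 54 higher and 10 lower. Without control replicate 1 the count fell to 1506 genes, 763 higher and 743 lower. Higher genes numbered 775 without control replicate 3, and lower genes 746 without 7 g/kg replicate 2. Centring each array on its median, in place of the loess curve, gave 1335 higher and 667 lower genes, or 66.7% higher against 51.7%. From the Cy5 channel alone, without division by the reference, 592 genes passed, and 44 of the 51 lists with at least 3 passing members had a count over 1.5 times lower. Below, that setting is named where a gene lost its call or its value moved by over 1.5 times in it. For most lists it is not named again, so their counts below should not be read as stable in it. There, 9 mitochondrial oxidation members in place of 16 and 1 bile acid synthesis member in place of 9 were lower. Immediate early genes higher numbered 6 in place of 14, and the acute phase median was 1.43 in place of 2.33. Many list counts of 1 or 2 members also changed when single arrays were left out. Groups of arrays did not overlap for 25.4% of all genes tested, so non-overlap alone is common here. Among the genes with a symbol, from which all lists are drawn, 5.98% were higher and 5.61% lower.

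**Figure D1:**
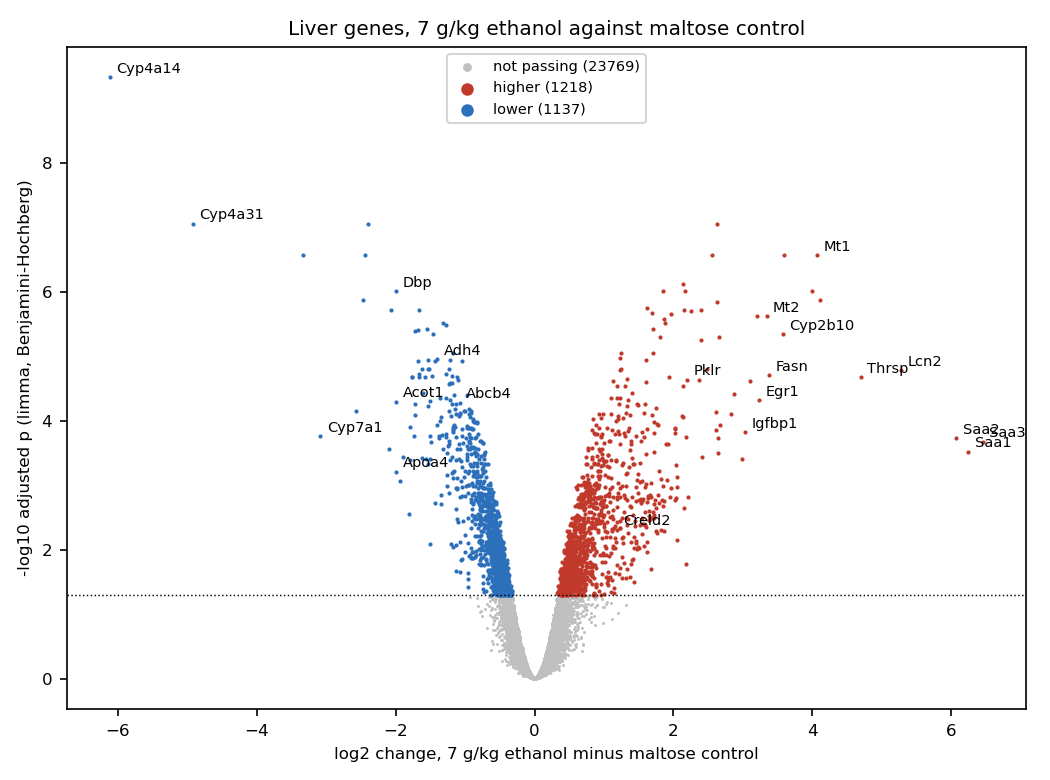
Difference between 7 g/kg and control livers (x axis, log2) against −log10 of the limma adjusted p (y axis), 1 point per gene tested, red for the 1218 higher and blue for the 1137 lower genes, with the dotted line at the threshold. Saa3 lies farthest right at 6.45, and Cyp4a14 and Cyp4a31 lie farthest left at −6.11 and −4.92.

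Acute phase proteins had the highest median of the 62 gene lists examined: 18 of the 20 tested members rose and none fell, with a median difference of 2.33 beside 0.01 for all genes. The list is mostly of liver secretions that bind iron, haem, lipid or proteases or form clots, and also holds Cd14, a receptor for bacterial lipid, Il1rn, an antagonist of interleukin-1, and Steap4, a metalloreductase. Steap4, Saa4, Cp and Crp were not tested, because the scanner software marked too many of their spots as outliers. With those spots kept, Steap4 differed by 3.55, Saa4 by 1.00, Cp by 0.44 (limma adjusted p = 0.0478) and Crp by 0.13 (adjusted p = 0.844). Saa4, Cp and Crp were chosen after their values were seen. Saa1, a serum amyloid A carried on HDL, read −4.00, −4.30 and −3.58 in the control arrays and 1.59, 2.45 and 2.80 in the 7 g/kg arrays. The 7 g/kg arrays lay far above every control, and the difference was 6.24 (SE 0.843, 75.8-fold, adjusted p = 0.000296). Saa1 and Saa2 are near-identical, as are Orm1, Orm2 and Orm3, so members of each pair or trio may share signal. Fga, a fibrinogen chain, read −1.55, −1.47 and −1.50 in controls against 0.58, 0.72 and 0.95, a rise of 2.26 (SE 0.156, adjusted p = 1.95e-06). Orm1, a lipid-binding plasma protein, rose by 2.87 (SE 0.297), Serpina3n, a protease inhibitor, by 2.61 (SE 0.292), and Fgb by 2.64 (SE 0.335). The binders of free haemoglobin and haem also rose. Hp, haptoglobin, went from 0.02, −0.91 and −0.53 to 1.36, 1.42 and 1.87, a rise of 2.02 (SE 0.245, adjusted p = 0.00013). Hpx, hemopexin, rose by 1.46 (SE 0.232, adjusted p = 0.00107). From the Cy5 channel alone both calls were lost, with Hp at 0.38 (adjusted p = 0.303) and Hpx at 0.68 (adjusted p = 0.126), and the differences were 3.55 for Saa1, 1.45 for Fga and 1.01 for Fgb. In each tested gene whose difference is given here the lowest array of the 7 g/kg group was above the highest control.

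Of 13 tested plasma proteins that classically fall in the acute phase, 3 rose and 3 fell. Only 1 rose with slide as a block, as without 7 g/kg replicate 3 or without control replicate 1 or 3, and the sign of the list's median changed in 4 of 23 alternatives. Rbp4, the retinol carrier, read 1.71, 0.60 and 1.12 in controls and 0.04, −0.05 and 0.07 at 7 g/kg, a change of −1.13 (SE 0.200, adjusted p = 0.00229). Serpina6, the corticosteroid carrier, differed by −1.001 (SE 0.224, adjusted p = 0.0108), and without control replicate 2 by −0.76 (adjusted p = 0.052). Ahsg, fetuin-A, rose by 1.096 (SE 0.154, adjusted p = 0.000403), but was at 0.03 from the Cy5 channel alone (adjusted p = 0.976). Alb differed by 0.08 (SE 0.144, adjusted p = 0.849), with overlapping groups. Complement (3 of 20 higher, 1 lower) and coagulation genes (3 of 20 higher, 3 lower) stayed closer to the background. A single complement gene rose with slide as a block, and 1 coagulation gene rose without 7 g/kg replicate 2 or without control replicate 1 or 3. Thbd, the thrombin receptor thrombomodulin, was not well above background on any control array and on all 3 arrays of the 7 g/kg group, and was at least 5.33-fold higher (adjusted p = 5.42e-06). Such a bound sets the brighter group's mean against the dimmest signal called above background in the other group.

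Genes of IL-6, IL-1 and STAT3 signalling rose in 8 of 23 tested members and fell in none, with a median of 0.28. Only 3 members passed with slide as a block, and 3 to 5 without any 1 of the 7 g/kg arrays or without control replicate 1 or 3. Il1r1, the interleukin-1 receptor, read −1.90, −1.28 and −1.80 in controls and 0.59, 1.02 and 0.84 at 7 g/kg, a difference of 2.48 (SE 0.231, adjusted p = 1.55e-05). Bcl3, an NF-kB cofactor, rose by 1.79 (SE 0.262) and Stat3, the transcription factor below the IL-6 receptor, by 1.33 (SE 0.145, adjusted p = 5.89e-05). The cytokine transcripts themselves did not pass: Tnf differed by 0.06 (adjusted p = 0.852) and Il1b by 0.05 (adjusted p = 0.869), both with overlapping groups, while Il6 was too dim to test. Among 12 chemokine and adhesion genes, 2 rose and 1 fell. Cxcl1, a neutrophil chemokine, went from −1.93, −0.99 and −1.62 to 1.28, 1.30 and 0.88, a rise of 2.67 (SE 0.317, adjusted p = 0.000114). Sele, the endothelial adhesion protein E-selectin, rose by 1.02 (SE 0.202, adjusted p = 0.00504). Cxcl12 fell in every 7 g/kg array below every control, with a difference of −1.54 (SE 0.168, adjusted p = 5.88e-05). Interferon-response genes rose in 1 and fell in 3 of 19, with Ifit1 at −0.75 (SE 0.130) and Bst2 at 0.83 (SE 0.115), and 1 fell without 7 g/kg replicate 1 or without control replicate 1 or 2. Tap1, the peptide transporter for MHC class I, was the 1 of 11 presentation genes that rose, by 1.44 (SE 0.279, adjusted p = 0.00424). The calls of Ifit1 (adjusted p = 0.119) and Tap1 (adjusted p = 0.0758) were lost in the Cy5 channel alone.

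Metallothioneins, small cysteine-rich proteins that bind zinc and copper, and their zinc transporters rose in 8 of 16 tested members and fell in none. The count was 4 without 7 g/kg replicate 3, 5 without 7 g/kg replicate 1 or any 1 control array, and 4 from the processed signals or the series table. Mt1 read −2.36, −2.16 and −1.45 in controls and 2.01, 1.97 and 2.24 at 7 g/kg. Mt2 read −2.27, −1.93 and −1.37 in controls and 1.43, 1.39 and 1.62 at 7 g/kg, a difference of 3.34 (SE 0.254, adjusted p = 2.32e-06). For both genes the arrays of the 7 g/kg group lay close together, the controls were more spread, and the groups were far apart. Slc39a14, an importer of zinc, manganese and iron, went from −1.26, −0.98 and −1.01 to 0.87, 0.80 and 1.49, a rise of 2.14 (SE 0.215, adjusted p = 2.82e-05). Slc30a10, a manganese exporter, rose by 1.61 (SE 0.160, adjusted p = 2.45e-05). Of the iron genes 2 of 16 rose and 2 fell (1 with slide as a block). Hmox1, which breaks down haem, rose by 1.01 (SE 0.151, adjusted p = 0.000688), though not in the Cy5 channel alone (0.79, adjusted p = 0.15), and Tfrc, the transferrin receptor, fell by 1.004 (SE 0.148, adjusted p = 0.000601). Hamp, the iron hormone hepcidin, differed by 0.04 (SE 0.338, adjusted p = 0.971), with overlapping groups.

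The 250 bases before the start of Mt1 and Mt2 are shown because these 2 neighbouring genes moved together. Both are RefSeq sequences on the plus strand of GRCm38.p6, Mt1 at chr8:94178839-94179088 and Mt2 at chr8:94172368-94172617. Capitals mark each match to a form of the metal response element, TGCACNC or TGCGCNC, read on either strand.
Mt1: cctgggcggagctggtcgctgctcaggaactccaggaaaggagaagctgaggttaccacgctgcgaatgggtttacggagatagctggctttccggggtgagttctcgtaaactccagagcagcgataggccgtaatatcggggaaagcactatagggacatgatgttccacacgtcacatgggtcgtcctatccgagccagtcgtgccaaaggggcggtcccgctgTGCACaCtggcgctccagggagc
Mt2: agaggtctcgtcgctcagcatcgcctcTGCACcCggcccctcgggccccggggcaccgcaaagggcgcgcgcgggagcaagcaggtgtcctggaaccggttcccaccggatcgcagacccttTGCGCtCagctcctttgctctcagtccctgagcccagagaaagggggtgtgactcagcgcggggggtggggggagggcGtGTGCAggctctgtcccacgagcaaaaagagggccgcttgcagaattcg
Mt1 held 1 match to TGCACNC, and Mt2 held 2, with 1 match to TGCGCNC. Over the 14 list members with a RefSeq promoter, 6 held TGCACNC (42.9%, against 11.8% of all 27025 promoters of this length) and 3 held TGCGCNC (21.4% against 14%). Of the 6 members that rose and had a promoter, 2 held TGCACNC and 2 held TGCGCNC. A match describes letters and not a bound site. In the acute phase list, the NF-kB form, GGG and TTTCC with 2 free bases between them, was in 3 of 20 promoters (15% against 1.65% of all), the STAT3 palindrome TTCNNNGAA in 5 (25% against 8.13%) and the C/EBP palindrome TTGCNNCAA in 1 (5% against 1.98%). Of the 14 acute phase members that rose and had a promoter, 1 held the NF-kB form, 4 the STAT3 palindrome and 1 the C/EBP palindrome. A repeat of AGGTCA with 1 free base between its copies, the form read by PPAR, was in 0 of 10 promoters of fatty acid omega-hydroxylases and in 0.041% of all.

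Transcripts of mitochondrial and peroxisomal fatty acid oxidation were mostly lower. Mitochondrial oxidation and ketogenesis had 16 of 22 tested members lower and none higher (median −0.79), peroxisomal oxidation 9 of 14 lower and 1 higher (median −0.69), and acyl-CoA thioesterases 5 of 13 lower and 1 higher (median −0.45). The thioesterase median was −0.28 without control replicate 1 and −0.29 with slide as a block, and the 1 higher member, Acot11 (0.53, adjusted p = 0.0449), lost its call in 11 of 23 alternatives. Cpt1a, the gate for fatty acid entry into mitochondria, read 1.36, 0.94 and 0.93 in controls and −0.63, −0.56 and −0.33 at 7 g/kg, a change of −1.58 (SE 0.154, adjusted p = 2.06e-05). Every 7 g/kg array was well below every control. Hadhb, a subunit of the trifunctional protein, went from 0.72, 0.85 and 0.53 to −0.67, −0.46 and −0.33, a change of −1.19 (SE 0.118), and its partner Hadha fell by 0.92 (SE 0.111). Bdh1, the last ketogenic enzyme, fell by 1.36 (SE 0.159). Ppara, the nuclear receptor that drives much of this programme, fell by 1.15 (SE 0.120, adjusted p = 3.87e-05). Members without a pass included Pdk4, a brake on pyruvate oxidation, which differed by 0.45 (adjusted p = 0.0776), and Fgf21, a fasting hormone, which differed by 0.13 (SE 0.286, adjusted p = 0.877).

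In peroxisomes, Crat, carnitine acetyltransferase, went from 0.95, 0.65 and −0.15 to −0.90, −1.49 and −1.001, a change of −1.61 (SE 0.224, adjusted p = 0.000375). Eci2 (−0.86, SE 0.102) and Acaa1b (−0.88, SE 0.142) also fell with no overlap between groups. Acot3, a thioesterase, was well above background on all 3 control arrays and on no 7 g/kg array, and was at least 8.29-fold lower. Among the omega-hydroxylases, P450 enzymes that oxidise the far end of fatty acids, 3 of 9 tested members fell and 1 rose. Cyp4a14 read 1.58, 0.80 and 0.87 in controls and −4.87, −5.10 and −5.11 at 7 g/kg. Cyp4a31 read 2.21, 1.29 and 1.55 in controls and −2.99, −2.87 and −3.84 at 7 g/kg. Both dropped on all 3 arrays. Cyp4a genes are similar in sequence, so their probes may share signal, and this holds also for Cyp4a10 below. Cyp4f14, of the neighbouring subfamily, went the other way, by 0.95 (SE 0.170, adjusted p = 0.00238). Of the fatty acid binders and activators, 4 of 15 fell and 2 rose: Fabp2 fell by 1.46 (SE 0.120, adjusted p = 4.43e-06), and Dbi, which binds acyl-CoA, rose by 1.33 (SE 0.130, adjusted p = 2.24e-05), with 0.85 (adjusted p = 0.0634) from the Cy5 channel alone.

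Several members of these pathways were not tested, because the scanner software marked too many of their spots as outliers. With those spots kept, Cyp4a10 read 1.28, 0.91 and 0.87 in controls and −3.52, −3.27 and −4.33 at 7 g/kg, a difference of −4.73 (SE 0.227, adjusted p = 3.59e-08). Ehhadh, a peroxisomal enzyme, differed by −2.20 (SE 0.157), Acsl1 by −1.46, Crot by −1.08 and Acadm by −0.95 under the same setting. Scd1, stearoyl-CoA desaturase, read −1.75, −0.53 and −0.94 in controls and 2.04, 1.18 and 1.53 at 7 g/kg, a difference of 2.66 (SE 0.293, adjusted p = 6.00e-05). Acly, ATP citrate lyase, differed by 2.22 (SE 0.128, adjusted p = 1.88e-07). In all of these the groups did not overlap on the arrays given. These values carry spots that the scanner software itself doubted.

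Of 19 tested genes of de novo lipogenesis, 11 rose and 3 fell (median 0.67). Thrsp, a lipogenic activator, read −4.36, −2.19 and −3.77 in controls and 1.90, 1.32 and 0.56 at 7 g/kg. Fasn, fatty acid synthase, read −2.96, −2.17 and −2.49 in controls and 1.58, 0.11 and 0.82 at 7 g/kg. Arrays within each group were widely spread, but the groups did not meet. Me1, malic enzyme and a source of NADPH, was tighter, from −1.003, −0.73 and −0.97 to 0.94, 0.62 and 0.79 (1.69, SE 0.127, adjusted p = 2.10e-06). Acss2, which makes acetyl-CoA from acetate, rose by 0.96 (SE 0.122, adjusted p = 0.000175). Mlxipl, which encodes the sugar-responsive factor ChREBP, rose by 0.84 (SE 0.142, adjusted p = 0.00159). Srebf1, which encodes SREBP1, spanned −1.39 to −0.04 in controls and −0.63 to 0.77 at 7 g/kg, and the difference of 0.70 (SE 0.344) did not pass (adjusted p = 0.282). Elovl2, an elongase of polyunsaturated fatty acids, fell by 1.32 (SE 0.169, adjusted p = 0.000269).

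Of 25 tested genes of glycolysis and the pentose phosphate pathway, 11 rose, 1 fell and 13 did not pass (median 0.35), and none fell with slide as a block. Pklr, liver pyruvate kinase, went from −2.34, −1.37 and −1.98 to 0.68, 0.13 and 0.10, a rise of 2.20 (SE 0.216, adjusted p = 2.27e-05). Pgd, which yields NADPH, went from −1.46, −1.14 and −1.29 to 0.92 and 0.75 on the 2 arrays of the 7 g/kg group with a value (2.13, SE 0.128, adjusted p = 7.54e-07). Khk, ketohexokinase of fructose use, went from −1.45, −1.03 and −1.38 to 0.86, 0.47 and 0.73 (1.97, SE 0.138). Of the glycogen genes, Pygl, glycogen phosphorylase, rose by 1.30 (SE 0.131), and Gys2, glycogen synthase, differed by −0.86 (SE 0.159), with −0.75 (adjusted p = 0.249) from the Cy5 channel alone. Igfbp1, an insulin-repressed plasma protein, went from −1.06, −2.85 and −2.04 to 0.86, 1.53 and 0.74 (3.03, SE 0.358, adjusted p = 0.000149). G6pc, glucose 6-phosphatase, had overlapping groups and a difference of 0.68 (SE 0.380, adjusted p = 0.364).

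**Figure D2:**
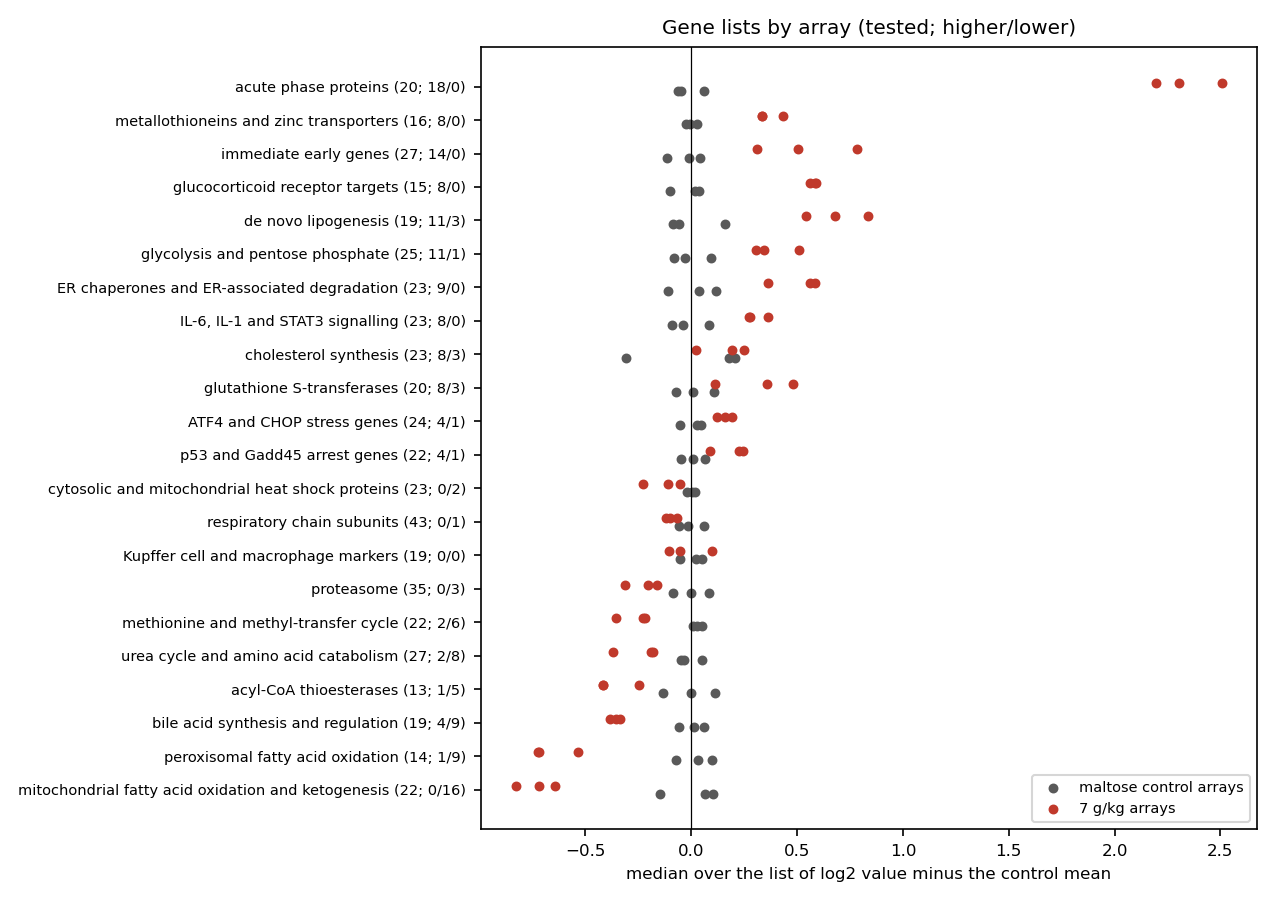
For each gene list (rows, with members tested and members higher/lower), the median over the list of the log2 ratio minus the control mean (x axis), 1 point per array, grey for control and red for 7 g/kg. The 3 arrays of the 7 g/kg group lie at 2.20, 2.30 and 2.51 for acute phase proteins, and below every control array for mitochondrial and peroxisomal fatty acid oxidation.

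Of 13 tested genes of triglyceride synthesis and VLDL assembly, 1 rose and 1 fell, and none fell with slide as a block. These counts leave out Lpin2, a phosphatidate phosphatase, and Mttp, which loads lipid onto apolipoprotein B, both not tested because of outlier-marked spots and chosen after their values were seen. With those spots kept, Lpin2 read 0.83, 0.49 and 0.51 in controls and −0.78, −1.19 and −0.71 at 7 g/kg (−1.50, SE 0.140, adjusted p = 1.46e-05). Mttp read 0.02, 0.10 and 0.06 in controls and 0.82, 1.03 and 1.22 at 7 g/kg (0.96, SE 0.120, adjusted p = 0.000154). The groups did not overlap in either gene, and the directions were opposite. Lpin1, a phosphatidate phosphatase, rose by 1.23 (SE 0.236, adjusted p = 0.0046), with 1.12 (adjusted p = 0.0856) from the Cy5 channel alone. Plin2, the main droplet coat protein of hepatocytes, read 0.20, 0.16 and −0.88 in controls and −0.15, −0.13 and 0.52 at 7 g/kg, overlapping, with a difference of 0.25 (SE 0.285, adjusted p = 0.727). Cidec differed by −0.14 (adjusted p = 0.903), Pnpla2, the triglyceride lipase, by 0.23 (adjusted p = 0.483) and Lipe by −0.19 (adjusted p = 0.465), all with overlapping groups. Within the list of 20 droplet and lipolysis genes, 3 rose and 4 fell, with Plin3 at 0.75 (SE 0.123), Abhd5, the activator of Pnpla2, at 0.67 (SE 0.113) and the droplet enzyme Hsd17b11 at −1.28 (SE 0.101, adjusted p = 3.25e-06). The Abhd5 call was lost in the Cy5 channel alone (adjusted p = 0.165) and with all probes averaged (0.32, adjusted p = 0.097). Among 19 genes of apolipoproteins and lipoprotein handling, 5 fell and 1 rose, with 3 falling without 7 g/kg replicate 1 or control replicate 1 and 2 rising with slide as a block. Abca1, the cholesterol exporter, was not tested for the same reason as Lpin2, was likewise chosen after its value was seen, and differed by 1.94 with the spots kept (adjusted p = 2.29e-06). Apoa4 went from 1.26, 0.13 and −0.08 to −1.44, −1.90 and −1.31, a change of −1.99 (SE 0.283, adjusted p = 0.000606). Angptl8, an inhibitor of lipoprotein lipase, rose by 0.94 (SE 0.177).

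In cholesterol synthesis 8 of 23 tested members rose and 3 fell (5 fell without control replicate 1). Fdps read −2.06, −0.36 and −0.56 in controls and 0.68, 0.98 and 0.72 at 7 g/kg, a rise of 1.79 (SE 0.308, adjusted p = 0.00188), and Dhcr7, the last step to cholesterol, rose by 1.37 (SE 0.156, adjusted p = 7.89e-05). Between them in the pathway, Fdft1, squalene synthase, went from 0.26, 0.53 and 0.76 to −0.60, −0.44 and −0.93, a change of −1.17 (SE 0.143, adjusted p = 0.000136), and of −0.63 with all probes averaged. Insig2, which retains SREBP in the ER, rose by 2.14 (SE 0.235, 2 arrays of the 7 g/kg group with a value, adjusted p = 8.56e-05). The sterol regulatory element TCACNCCAC was in 1 of 19 promoters of the list (5.26% against 1.22% of all), and in 0 of the 6 that rose.

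Bile acid synthesis and its regulators fell in 9 and rose in 4 of 19 tested members (median −0.47). With slide as a block 4 members fell, as without 7 g/kg replicate 2 and with median centring, and the median was −0.26 in the Cy5 channel alone. Cyp8b1, which makes cholic acid, was not tested because of outlier-marked spots and was chosen after its value was seen, at −1.64 with them kept (adjusted p = 3.02e-05). Cyp7a1, which catalyses the first and limiting step from cholesterol to bile acids, read 1.05, 1.27 and 1.55 in controls and −2.08, −2.32 and −0.98 at 7 g/kg. Cyp2c70, which makes muricholic acids in mice, did the reverse, from −3.81, −2.96 and −3.31 to 0.37, 1.08 and 0.80. The groups did not overlap in either gene, and for Cyp7a1 only 2 of the 3 arrays of the 7 g/kg group were well above background. Cyp7b1 of the alternative pathway rose by 0.96 (SE 0.160, adjusted p = 0.00152). Transporters fell in 5 and rose in 2 of 17, with 3 falling under median centring. The sterol exporter Abcg8 went from 0.45, 0.60 and 0.53 to −1.19, −0.91 and −1.36 (−1.68, SE 0.152, adjusted p = 1.17e-05). Abcb4, the phospholipid exporter, fell by 1.07 (SE 0.115) and Slco1a4, an organic anion importer, differed by −1.80 (SE 0.327, adjusted p = 0.00273), while Slc22a7 rose by 1.42 (SE 0.202). Slc10a2, the bile acid importer known from ileum and bile ducts, went from −2.25, −2.02 and −2.65 to 0.78 and 1.00 on the 2 arrays of the 7 g/kg group with a value, a rise of 3.20 (SE 0.227, 9.17-fold, adjusted p = 2.32e-06). In the Cy5 channel alone Cyp7b1 (adjusted p = 0.0642) and Slco1a4 (adjusted p = 0.0692) did not pass.

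Of 14 tested enzymes that handle ethanol itself, 6 fell, 2 rose and 6 did not pass (median −0.15, and −0.32 with slide as a block). Adh4, an alcohol dehydrogenase, read 0.77, 1.15 and 1.00 in controls and −0.41, −0.51 and −0.37 at 7 g/kg, a change of −1.40 (SE 0.125, adjusted p = 1.08e-05). Cyp2e1, the ethanol-inducible P450, went from 0.42, 0.69 and 1.01 to −0.13, 0.08 and −0.14, a change of −0.77 (SE 0.144, adjusted p = 0.00348). The aldehyde dehydrogenases Aldh3a2 (−1.28, SE 0.134) and Aldh1b1 (−1.02, SE 0.154) fell, the second not in the Cy5 channel alone (adjusted p = 0.124). Adh1, the classical alcohol dehydrogenase, differed by −0.39 (adjusted p = 0.0416) and lost its call in 12 of 23 alternatives. Aldh1a1, not tested because of outlier-marked spots and chosen after its value was seen, differed by −0.92 with them kept (adjusted p = 0.00216). Aldh2, the main acetaldehyde enzyme, had 2 values in each group, which overlapped, and a difference of −0.01 (SE 0.203, adjusted p = 0.985). Among 21 esterases and transferases of the kind that can join ethanol to fatty acids or glucuronic acid, 3 rose and 3 fell (5 fell with trend and robust variance). Ces2b went from −0.48, 0.31 and −0.62 to 1.06, 1.00 and 1.14 (1.33, SE 0.198, adjusted p = 0.000647), with Ces2e at 0.97 (SE 0.134, and 0.62 with all probes averaged) and Ces2c at 0.73 (SE 0.118, not passing in the Cy5 channel alone, adjusted p = 0.129). Ces1f went from 0.43, 1.09 and 0.72 to −0.29, −0.24 and −0.64 (−1.14, SE 0.159, adjusted p = 0.000403).

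Drug-metabolising P450 genes and their receptors rose in 10 and fell in 6 of 32 tested members. Cyp2b10, the classical target of the receptor CAR, read −4.10, −3.30 and −3.88 in controls and −0.29, 0.38 and −0.62 at 7 g/kg. The difference of 3.58 (SE 0.254, adjusted p = 4.43e-06) came while Nr1i3, which encodes CAR, fell from 0.22, 0.45 and 0.73 to −0.85, −1.07 and −0.90 (−1.41, SE 0.160, adjusted p = 0.000116). Cyp2c29 rose by 1.55 (SE 0.182, and by 0.94 in the Cy5 channel alone) and Cyp2a5 fell by 1.89 (SE 0.241), and Alas1, the first enzyme of haem synthesis, fell by 1.73 (SE 0.217, adjusted p = 0.000167). Cyp2b and Cyp2a genes have near-identical copies, so their probes may share signal. Glutathione S-transferases rose in 8 and fell in 3 of 20 (median 0.31). Gstm3 went from −1.39, −0.96 and −1.16 to 0.49, 0.94 and 0.47 (1.80, SE 0.149, adjusted p = 4.90e-06), and Gstt2 from 0.95, 0.79 and 0.61 to −1.002, −0.999 and −0.69 (−1.68, SE 0.135, adjusted p = 3.80e-06). Antioxidant targets of NRF2 rose in 1 and fell in 5 of 19 (3 fell with slide as a block, and 2 or 3 without 7 g/kg replicate 2 or 3 or control replicate 1 or 2), the riser being Hmox1, and Mafg, a partner of NRF2 on DNA, fell by 0.97 (SE 0.117, adjusted p = 0.000127).

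ER chaperones and ER-associated degradation genes rose in 9 of 23 tested members and fell in none, with a median of 0.53. The count was 5 without control replicate 3, 4 from the processed signals or the series table and 1 from the Cy5 channel alone. Creld2, an ER-resident protein induced by misfolding, read −2.09, −2.02 and −2.32 in controls and −0.68, −1.51 and −0.67 at 7 g/kg, a rise of 1.19 (SE 0.229, adjusted p = 0.00479). Its adjusted p was 0.0720 with outlier-marked spots kept, 0.197 in the deposited series table and 0.0535 from the Cy5 channel alone, at differences of 1.20, 1.20 and 1.22. Xbp1, the transcription factor of the IRE1 branch, went from −0.84, −0.76 and −1.03 to 0.13, 0.18 and 0.12, a rise of 1.02 (SE 0.178, adjusted p = 0.00204). Atf6, of a second branch, rose by 0.53 (SE 0.105), Derl2 by 0.65 (SE 0.128) and Edem1 by 0.69 (SE 0.138), the last 2 being parts of the disposal route. In the Cy5 channel alone none of these 3 passed (adjusted p = 0.178, 0.168 and 0.0521), and with all probes averaged Derl2 (0.51, adjusted p = 0.0565) and Edem1 (0.51, adjusted p = 0.0818) did not. Hspa5 (BiP), the central chaperone, was not tested because of outlier-marked spots. With them kept it read −1.50, −1.59 and −1.71 in controls and −0.47, −1.09 and −0.39 at 7 g/kg, a difference of 0.95 (SE 0.291, adjusted p = 0.0579). Pdia4 and Herpud1 were not tested for the same reason and were chosen after their values were seen. With the spots kept, Pdia4 differed by 0.03 (adjusted p = 0.969) and Herpud1 by −0.03 (adjusted p = 0.963). Hsp90b1 differed by 0.53 (SE 0.221, adjusted p = 0.185). Genes of ER translocation and vesicle coats rose in 7 of 37 and fell in none, among them Sec61g (0.90, SE 0.112) and Spcs2 (0.79, SE 0.130).

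The 250 bases before the start of Creld2, Dnajc3 and Hspa5 are shown because the ER stress response element was far more common in this list than elsewhere. They are RefSeq sequences on the plus strand of GRCm38.p6, Creld2 at chr15:88819396-88819645, Dnajc3 at chr14:118937682-118937931 and Hspa5 at chr2:34771840-34772089. Capitals mark the 2 fixed ends of the element, CCAAT and CCACG with 9 free bases between them, searched on both strands. In Creld2 it is read on the opposite strand.
Creld2: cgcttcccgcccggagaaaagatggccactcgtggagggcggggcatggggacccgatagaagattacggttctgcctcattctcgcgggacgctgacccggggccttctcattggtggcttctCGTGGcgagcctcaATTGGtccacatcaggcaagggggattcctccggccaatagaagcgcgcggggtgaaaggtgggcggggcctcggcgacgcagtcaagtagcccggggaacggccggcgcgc
Dnajc3: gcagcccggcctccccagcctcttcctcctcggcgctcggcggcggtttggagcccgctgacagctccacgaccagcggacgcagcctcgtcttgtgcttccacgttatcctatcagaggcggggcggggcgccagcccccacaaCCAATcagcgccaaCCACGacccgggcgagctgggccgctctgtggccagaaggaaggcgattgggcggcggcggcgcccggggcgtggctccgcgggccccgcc
Hspa5: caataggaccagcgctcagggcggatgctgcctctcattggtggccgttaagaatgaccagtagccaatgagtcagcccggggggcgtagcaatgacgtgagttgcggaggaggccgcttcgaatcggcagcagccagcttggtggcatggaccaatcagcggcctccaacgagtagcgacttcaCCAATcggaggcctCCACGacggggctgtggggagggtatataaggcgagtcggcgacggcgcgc
The element was in 9 of 24 list members with a promoter (37.5%) and in 35 of all 27025 promoters (0.13%). The 9 were Creld2, Dnajc3, Syvn1, Pdia6, Calr, Canx, Derl3, Hsp90b1 and Hspa5. Of the 7 members that rose and had a promoter, 4 held it. Dnajc3, which limits the PERK branch, rose by 0.57 (SE 0.130, adjusted p = 0.0141). Syvn1, the ubiquitin ligase of ER disposal, rose by 0.87 (SE 0.211, adjusted p = 0.0167), and Pdia6, a disulfide isomerase, by 0.59 (SE 0.166, adjusted p = 0.0412). Syvn1 and Pdia6 were chosen after their values were seen. These 3 calls were lost when single arrays were left out. For Dnajc3 the adjusted p was 0.063 without 7 g/kg replicate 2 (0.49) and 0.061 without control replicate 3 (0.52). For Syvn1 it was 0.051 to 0.075 without 7 g/kg replicate 1 or 3 or control replicate 1 or 3 (0.72 to 0.89). For Pdia6 it was 0.082 to 0.18 without any one of the 7 g/kg arrays or control replicate 1 or 3 (0.47 to 0.62), and 0.14 with slide as a block (0.56). The core TGACGTG was in 1 of 24 promoters (4.17% against 1.85%), and in 0 of the 7 that rose.

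Of 24 ATF4 and CHOP stress genes, 4 rose and 1 fell. None fell with slide as a block, 3 fell with outlier-marked spots kept, and none rose in the Cy5 channel alone. Cth, Atf5 and Atf4 were not tested because of such spots and were chosen after their values were seen. With the spots kept, Cth differed by −1.67 (adjusted p = 0.000222), Atf5 by −0.62 (adjusted p = 0.0404) and Atf4 by 0.16 (adjusted p = 0.632). Ddit3, which encodes CHOP, read −0.40, −0.31 and −0.33 in controls and −0.29, −0.26 and −0.31 at 7 g/kg, a difference of 0.06 (SE 0.136, adjusted p = 0.882). Ddit4, an inhibitor of mTOR, went from −0.78, −1.34 and −0.72 to 0.86, 1.05 and 0.31 (1.69, SE 0.193, adjusted p = 8.10e-05). Ero1a, the ER oxidase, rose by 0.53 (SE 0.111) and Slc3a2, an amino acid transporter chain, by 0.63 (SE 0.105). Of 23 cytosolic and mitochondrial heat shock proteins, none rose and 2 fell, and 1 fell with slide as a block. Hspa8, a constitutive cytosolic chaperone, differed by −0.49 (adjusted p = 0.0495) and lost its call in 16 of 23 alternatives. Hsph1, a large cytosolic chaperone, went from −0.14, −0.43 and −0.29 to −1.50, −1.26 and −0.75 (−0.89, SE 0.198, adjusted p = 0.0107). It did not pass without 7 g/kg replicate 1 (−0.72, adjusted p = 0.051) or without control replicate 1 (−0.81, adjusted p = 0.054).

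Immediate early genes, which respond within the first phase of a stimulus, rose in 14 of 27 tested members and fell in none (median 0.62). The median was 0.38 with slide as a block and 0.95 with processed signals, and 9 members rose in the series table. Egr1 read −1.99, −2.49 and −2.83 in controls and 0.51, 1.69 and 0.18 at 7 g/kg, a rise of 3.23 (SE 0.344, adjusted p = 4.77e-05). Junb, an AP-1 subunit, went from −0.68, −0.58 and −0.70 to 0.78, 0.70 and 0.53 (1.32, SE 0.197, adjusted p = 0.000657). Its call was lost in the series table (0.21, adjusted p = 0.494), with outlier-marked spots kept (0.26, adjusted p = 0.278) and where 1 value per group sufficed (0.48, adjusted p = 0.29). Junb was even over the 3 arrays of the 7 g/kg group, whereas Egr1 was highest on replicate 2. Btg2 (0.13, 1.43 and −0.37) and Trp53inp1 (0.06, 1.46 and −0.40), both also targets of p53, were highest on that array too. The haemoglobin gene Hba-a1 read −0.07, 1.33 and −1.01 on the same arrays, and its part in these results was not tested. Without replicate 2 the differences were 2.78 for Egr1, 1.35 for Btg2 and 1.21 for Trp53inp1, and all 3 passed. Btg2 did not pass in the Cy5 channel alone (adjusted p = 0.0535).

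Cdkn1a, the cell cycle inhibitor p21, read −2.60, −2.07 and −2.50 in controls and 0.18, 0.39 and −0.06 at 7 g/kg, a rise of 2.56 (SE 0.153, adjusted p = 2.65e-07). It led the p53 and Gadd45 list, in which 4 of 22 rose and 1 fell, and Gadd45g rose by 1.21 (SE 0.196). Bax, a death effector and p53 target, differed by 0.28 (adjusted p = 0.107). Of 34 cell death genes, 2 rose and 1 fell. The receptors Tnfrsf12a (1.32, SE 0.207) and Tnfrsf1a (0.91, SE 0.181, with adjusted p = 0.0585 in the Cy5 channel alone) were the risers, and none fell with slide as a block. Glucocorticoid receptor targets rose in 8 of 15 and fell in none (median 0.60, and 0.19 with outlier-marked spots kept, 0.36 in the series table and 0.197 in the Cy5 channel alone), but Mt1, Mt2 and Cdkn1a are among the 8. Fkbp5, a specific target, went from −0.39, −0.55 and −0.38 to 0.15, 0.21 and 0.13 (0.60, SE 0.124, adjusted p = 0.00773), though not in the Cy5 channel alone (adjusted p = 0.377), and Per1 differed by −0.02 (adjusted p = 0.976).

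Clock genes fell in 6 and rose in 3 of 24, and 3 fell without control replicate 2. Dbp, a clock output factor, read 1.15, 1.24 and 1.27 in controls and −0.83, −0.84 and −0.64 at 7 g/kg. Tef fell by 1.05 (SE 0.132) and Per3 was at −0.94 (SE 0.139, and −1.72 from the processed signals). Nfil3, of the same list, rose by 1.28 (SE 0.211, adjusted p = 0.00142), and Arntl was at 0.10 (adjusted p = 0.790). The E-box CACGTG was in 5 of 19 clock list promoters (26.3% against 6.86% of all), in 2 of the 6 that fell and 0 of the 2 that rose and had a promoter. Times of gavage and tissue collection are not in the labels. Growth hormone and sex-biased genes fell in 6 and rose in 4 of 28. Igfals, which carries IGF1 in plasma, went from 0.27, 0.43 and 0.34 to −0.91, −0.79 and −0.83 (−1.19, SE 0.129, adjusted p = 5.33e-05), and Igfbp2 fell by 1.73 (SE 0.197). Hepatocyte transcription factors fell in 6 and rose in 1 of 23, with Cebpa, a master factor of hepatocyte genes, at −0.79 (SE 0.147, and adjusted p = 0.184 in the Cy5 channel alone). With slide as a block 2 of the 23 fell and none rose, and 2 or 3 fell without 7 g/kg replicate 1 or 2 or control replicate 1.

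Genes of the urea cycle and amino acid catabolism fell in 8 and rose in 2 of 27 tested members (median −0.27), and none rose with slide as a block. The median was −0.14 without control replicate 1, −0.17 without 7 g/kg replicate 1 and −0.17 in the series table or with outlier-marked spots kept. Hpd, of tyrosine breakdown, read 0.79, 0.18 and 0.41 in controls and −0.78, −0.64 and −0.73 at 7 g/kg, a change of −1.18 (SE 0.145, adjusted p = 0.000149). Hal, which opens histidine breakdown, fell by 1.27 (SE 0.193) and Gpt, alanine aminotransferase, differed by −0.77 (SE 0.125), with adjusted p = 0.171 in the Cy5 channel alone. In the methionine cycle 6 of 22 fell and 2 rose, with 3 falling without 7 g/kg replicate 2 or control replicate 2 or 3 and 2 in the series table. Ahcy, which clears S-adenosylhomocysteine, went from 0.37, −0.03 and 0.28 to −1.12, −1.07 and −1.21 (−1.34, SE 0.147, adjusted p = 8.61e-05). Nnmt, which spends methyl groups on nicotinamide, went from −0.90, −1.80 and −1.26 to 0.12, 0.63 and 0.59 (1.76, SE 0.209, adjusted p = 0.000111). Genes of NAD supply and the NADH shuttles fell in 6 and rose in 2 of 28, with the pantetheinase Vnn1 at −1.72 (SE 0.186) and the mitochondrial deacetylase Sirt3 at −0.67 (SE 0.105, and adjusted p = 0.0632 in the Cy5 channel alone). Ornithine aminotransferase, Oat, fell by 1.54 (SE 0.126, 2 control arrays with a value, adjusted p = 1.55e-05).

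By count of passing genes, housekeeping machinery other than the cytoskeleton was near the background. Passing or not, differences were above 0 in only 10 of 43 respiratory chain and 4 of 35 proteasome subunits. Respiratory chain subunits had 0 higher and 1 lower of 43, proteasome subunits 0 and 3 of 35 (median −0.24), and ribosome biogenesis 0 and 3 of 32. The proteasome count was 1 with slide as a block, 0 or 1 without any 1 array other than 7 g/kg replicate 3, and 6 with all probes averaged, and its median was −0.15 without control replicate 1. Npm1, a nucleolar chaperone, fell by 0.78 (SE 0.117), and by 0.52 with all probes averaged. The cytoskeleton rose in 8 of 28 and fell in none, with Actb going from −0.47, −0.53 and −0.76 to 0.26, 0.13 and 0.20 (0.78, SE 0.124, adjusted p = 0.00107) and Tpm4 rising by 1.07 (SE 0.138). Of 29 replication and cell cycle genes 5 fell and 2 rose (2 and 1 with slide as a block, and 2 or 3 falling without any 1 array), and Mcm10 fell by 1.14 (SE 0.126). Tk1, thymidine kinase, read 0.72, 1.07 and 1.36 in controls and −1.06, −1.03 and −0.98 at 7 g/kg, with no overlap.

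**Figure D3:**
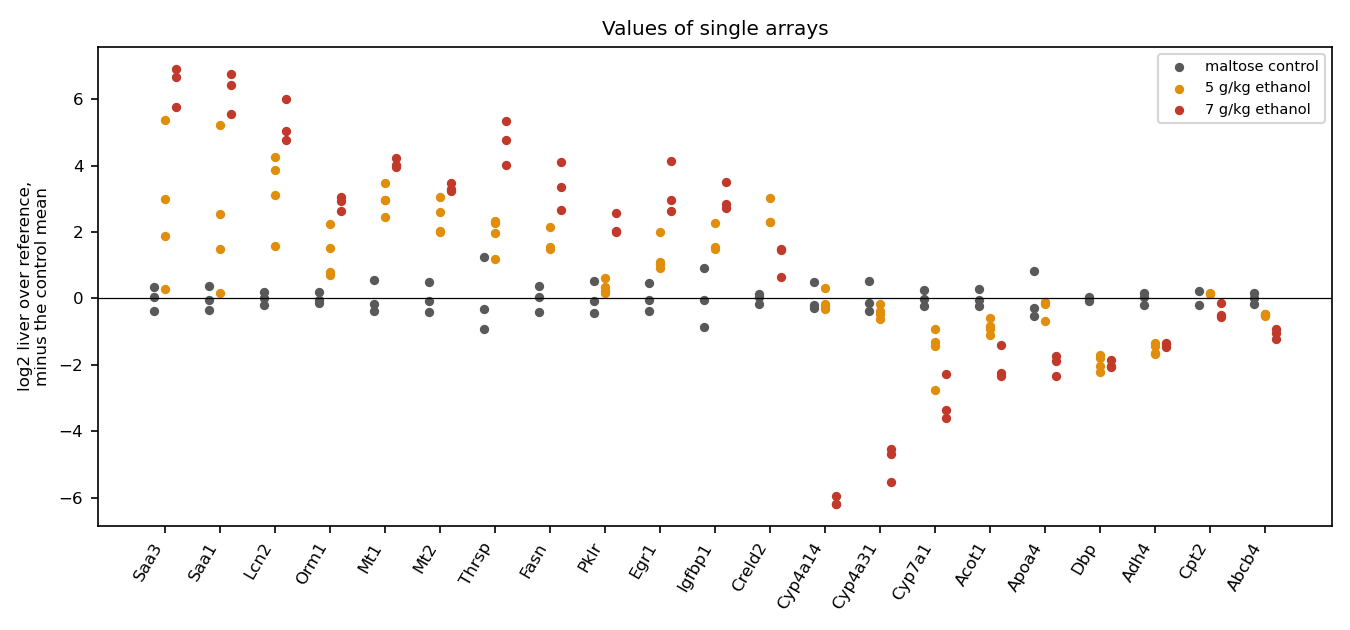
Log2 ratio of liver over reference minus the control mean (y axis) for selected genes (x axis), 1 point per array, grey for control, orange for 5 g/kg and red for 7 g/kg. For Saa1 and Mt1 all 7 g/kg points lie above all controls, and for Cyp4a14 and Cyp4a31 far below both other groups.

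Markers of the cells a liver sample can hold were examined in summed Cy5 level. In bulk tissue, fewer cells of a type and less RNA per cell cannot be told apart. Hepatocyte defining markers rose in 7 and fell in 2 of 14, and their sum ran from 785820 to 906130 in controls and from 1012800 to 1044900 at 7 g/kg, without overlap. With slide as a block 4 rose, as without replicate 3 of either group, and 1 rose in the Cy5 channel alone, where the median went from 0.42 to 0.01. That list holds acute phase genes such as Fgb and Hpx. Kupffer cell and macrophage markers had no passing gene among 19, with sums of 10698 to 11923 in controls and 9903 to 12843 at 7 g/kg. Neutrophil markers rose in 2 of 14. S100a8 was not well above background on any control array and was at least 2.41-fold higher (adjusted p = 0.000445), and S100a9 rose by 1.41 (SE 0.233), but the sum of the list overlapped (4883 to 9206 and 6154 to 7488). Sinusoidal endothelial markers rose in 5 of 21, with sums of 8551 to 9299 and 10006 to 11833, which did not overlap. Lyve1, a hyaluronan receptor, had a control mean of −1.39 ± 0.41 (SD, n = 3) and read 0.41, 0.63 and −0.02 at 7 g/kg (1.72, SE 0.202, adjusted p = 0.000101). With slide as a block 2 of the endothelial markers passed, and 1 or 2 without any 1 array other than control replicate 2. Every tested marker in these lists was well above background on at least 1 of the 6 arrays. The part of these cell types in the results above was not tested.

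Lymphocyte (2 of 13 higher, and none with slide as a block), stellate cell (2 of 20) and cholangiocyte markers (2 of 15) had overlapping sums, as had exocrine pancreas markers, none of whose 14 tested members passed. Adipocyte markers rose in 3 of 15 (1 from the processed signals or the series table) and their sum did not overlap, at 13892 to 55404 in controls and 61215 to 80825 at 7 g/kg, but Car3 set it: without Car3 the sums were 4023 to 4993 and 4297 to 5376. Adipoq, the defining adipocyte hormone, differed by 0.27 (SE 0.125, adjusted p = 0.237). Erythroid markers summed to 17070 to 18967 in controls and 18441 to 68196 at 7 g/kg, the top value belonging to replicate 2. Pericentral hepatocyte markers fell in 5 and rose in 2 of 16 (none rose with slide as a block), with sums of 142120 to 153820 in controls and 89557 to 115550 at 7 g/kg. Periportal markers fell in 3 and rose in 3 of 14 (1 rose with slide as a block), and their sums overlapped (370170 to 441240 and 423750 to 465090). The list median was no higher for periportal (−0.22) than for pericentral markers (−0.15), and a sum weighs the brightest members most. A fall particular to pericentral markers is thus not shown.

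Some of these differences were also present at 5 g/kg and others were not. The 7 g/kg and 5 g/kg arrays differed at 410 genes (1.57% of those tested, with 173 or 0.662% higher and 237 or 0.907% lower at 7 g/kg), 203 without 7 g/kg replicate 1 and 229 without 7 g/kg replicate 2. Against the same controls, 5 g/kg gave 3.80% of genes passing. Cyp4a14 differed from control by −0.10 at 5 g/kg and by −6.11 at 7 g/kg, and between doses by −6.01 (adjusted p = 2.25e-10). Pgd was at 0.15 and 2.13 (1.98, adjusted p = 3.21e-06) and Gpi1, glucose 6-phosphate isomerase, at 0.06 and 1.62 (1.57, adjusted p = 5.21e-06). For these genes the 5 g/kg livers stayed near the controls. In mitochondrial oxidation 8 of 22 members, and in acute phase 9 of 20, differed between doses, all in the direction of the larger change at 7 g/kg. Saa1 was at 2.35 and 6.24 (3.89 between doses, adjusted p = 0.0215).

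A few genes were nearer control at 7 g/kg than at 5 g/kg or crossed it. Creld2 was at 2.53 at 5 g/kg and 1.19 at 7 g/kg (−1.34, adjusted p = 0.00948), and was the 1 of 23 ER chaperone genes that differed between doses. The list had 12 higher members at 5 g/kg and 9 at 7 g/kg. Hsph1 went from 0.64 to −0.89 (−1.53, adjusted p = 0.000694), and 7 of 23 heat shock proteins were lower and 1 higher at 7 than at 5 g/kg. Car3, carbonic anhydrase 3, was at −1.14 and 2.18 (3.32, adjusted p = 0.00288). Its control arrays read −2.72, 0.00 and −0.82 and its 7 g/kg arrays 1.36, 0.99 and 0.63, and without 7 g/kg replicate 1 the difference from control was 1.99 (adjusted p = 0.061). Ces2b was at −0.34 and 1.33 (1.66, adjusted p = 0.000334).

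For other genes the differences from control at the 2 doses were close in value. Cdkn1a was at 2.53 at 5 g/kg and 2.56 at 7 g/kg (0.03, adjusted p = 0.970 between doses), Dbp at −1.94 and −1.99, Hp at 1.88 and 2.02 (0.14, adjusted p = 0.902) and Bdh1 at −1.25 and −1.36 (−0.11, adjusted p = 0.878). Cyp2b10 was at 4.54 and 3.58 (−0.96, adjusted p = 0.164). A p that missed the threshold does not show that the doses acted alike.

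**Figure D4:**
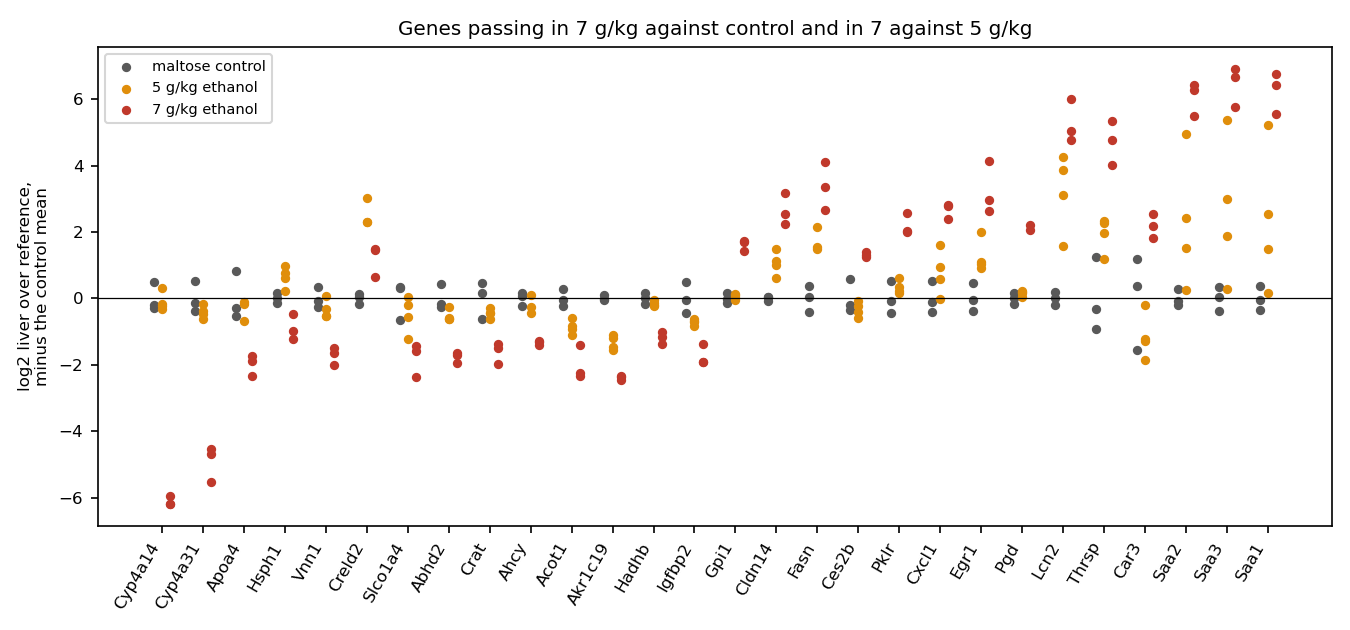
Log2 ratio of liver over reference minus the control mean (y axis), 1 point per array, for 28 genes (x axis) that passed at 7 g/kg against control and between doses, in order of the difference between doses. For Cyp4a14 the 5 g/kg points (orange) lie with the controls (grey) and the 7 g/kg points (red) far below, and for Car3 the 2 doses lie on opposite sides of the control mean.

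Slide was the 1 technical grouping that could be checked. The 10 arrays lay on 4 slides, of which 2 held a control and a 7 g/kg array. The fit with slide as a block passed 1740 genes in place of 2355. The 4 arrays of these slides are among the 6 compared, so a shared direction in genes chosen for their size on those 6 is no separate check, and the values are given as a description. Within the 2 slides, Mt2 differed by 2.99 and 3.36, Pklr by 2.08 and 2.05, Cpt1a by −1.26 and −1.57, and Creld2 by 1.65 and 1.34.

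**Figure D5:**
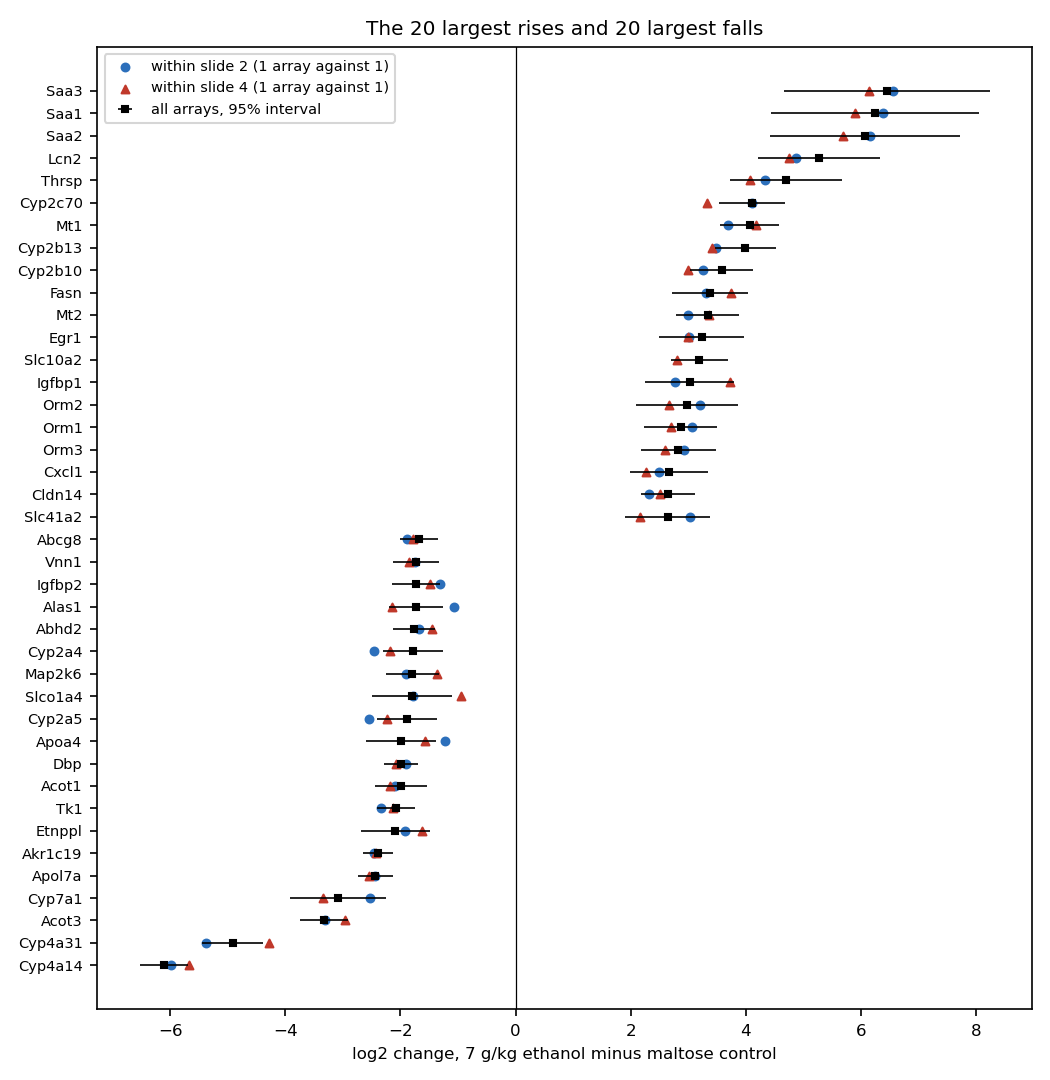
Difference, 7 g/kg minus control (x axis, log2), for the 20 largest rises and 20 largest falls (rows): black squares from all arrays with 95% intervals, blue circles and red triangles from 1 array against 1 within the slides that held both groups. The within-slide points use arrays that also chose the genes, and are drawn to show their spread around the black squares.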

How the data were processed

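Mouse liver RNA on 10 arrays was hybridised in Cy5 with a common Cy3 reference on 2-colour Agilent arrays, in the same orientation throughout, per the labels. The deposited scanner files hold spot intensity and a log10 ratio from Agilent Feature Extraction 11.5.1.1, on an array design of build mm8, per the file headers. A second deposited source, the series table, gives log2 ratios that followed the scanner's log10 ratio with a slope of 3.32 to 3.34; its normalization is not given in the sources used here. Median spot intensities were corrected with normexp (offset 50) and each array was loess-normalized in limma 3.58.1 (R 4.3.3). Control spots and outlier-marked spots were left out, the probe kept for a gene had to be well above background on at least 3 arrays, and each group needed 2 values. One fit over all 10 arrays gave the group differences, two-sided, with Benjamini-Hochberg adjustment over 26124 genes. On simulated data of this size it recovered 92% to 100% of changes of 1 or 2 log2 units. Those values were drawn independently for each gene and array, with no slide or array-wide deviation, so recovery in the real data may be lower. Genes named are the 20 highest and 20 lowest passing genes with groups apart, up to 6 members of each of 62 lists with the smallest p, and a fixed list; any others are said to be chosen after their values were seen. The members and lists were chosen with earlier results of these data known. Promoters are from RefSeq. Alternatives changed the background, normalization, filters, threshold, slide or replicate block and single arrays. The number of arrays limits the precision. Some genes are not reported here.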

Additional observations from a re-analysis of the deposited data

How the results depend on the processing

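Against 2355 genes passing in limma (1218 higher, 1137 lower) and 410 between doses, the counts moved most with the signal used. The scanner's processed signals gave 1523 (767 higher, 756 lower) and 120 between doses, the Cy5 channel alone 592 (361 higher, 231 lower) and 47 between doses, 138 genes between doses came from the series table, and median centring 667 lower genes. At an adjusted p under 0.01 the counts were 1178 (614 higher, 564 lower) and 147, and at an unadjusted p under 0.05 they were 5251 (2731 higher, 2520 lower) and 2812; the thresholds themselves set these. The cause of the other moves was not tested. Leaving out 1 array at a time gave 1506 to 1959 passing genes, 763 to 1005 higher, 743 to 981 lower, 411 to 495 changed at least 2-fold, and 203 to 383 between doses. Slide as a block gave 1740. Arrays with the same replicate number did not deviate together (r of 0.05, −0.11 and −0.03), so the numbers were not taken as pairs, and the replicate block gave 2290. Of 389 named genes tested, 292 passed and 143 of these kept their side of the threshold in all 23 alternatives. The direction reversed for Trf in the Cy5 channel alone (−0.011) and for Akr1c19 where 1 value per group sufficed (0.089), which brought in another probe. Dim genes such as Il6 could not be tested.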

Other observations

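Several large changes belonged to no list. Cldn14, a tight junction claudin, read −1.98, −1.98 and −2.12 in controls and 0.52, 1.15 and 0.20 at 7 g/kg, a difference of 2.65 (SE 0.220, adjusted p = 4.96e-06 in limma). Slc41a2, a magnesium transporter, differed by 2.64 (SE 0.346, 2 arrays of the 7 g/kg group with a value). Map2k6, a kinase upstream of p38, went from 0.95, 0.53 and 0.93 to −0.83, −1.17 and −0.97, and Abhd2 differed by −1.76 (SE 0.171). The groups did not overlap for any of these 4 genes.

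Autophagy and lysosome genes rose in 3 and fell in 5 of 32, and 3 fell without 7 g/kg replicate 2 or without control replicate 1 or 2. Ulk1, which starts autophagy, differed by 0.94 (SE 0.131, 2 arrays of the 7 g/kg group with a value), and Lipa, the lysosomal lipase, by −0.80 (SE 0.129).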
